A study of Mus musculus with 12 samples.

Results

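The 41 genes described here encode the nuclear subunits of respiratory complexes II, III, IV and V and cytochrome c in mouse CD4 T cells. They were chosen by name from the table of 10126 genes deposited for the series: symbols Sdha to Sdhd, those starting with Uqcr, Cox4 to Cox8 or Atp5, and Cyc1, which gave 40 genes. Cycs was added from the count files, in which 49585 genes are listed. Complex II had 4 members, complex III 9, cytochrome c 1, complex IV 11 and complex V 16. Cox7a2l, a factor of respiratory supercomplexes, and Atp5s, a factor related to ATP synthase, share the prefixes but are not subunits of the enzymes, and they were counted as members.

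Naive CD4 T cells were isolated from lymph nodes of female mice on a C57B6/J background and activated for 20 h by plate-bound antibodies, anti-CD28 at 1 ug/ml and anti-CD3 at 5 ug/ml. All mice carried Rnmt fl/fl alleles, with loxP sites around exon 3 of Rnmt, the gene of the methyltransferase that adds the methyl group to the guanosine cap of mRNA. Rnmt cKO mice were CD4cre+ and control mice CD4cre-. The Cre transgene is driven by the Cd4 promoter and acts from the double positive stage of thymic development, before the cells were isolated and activated. Cells received 0.1 mg/ml cycloheximide for 1 min before lysis. Total cytoplasmic RNA and ribosome protected fragments (RPF) were sequenced from 3 libraries of each genotype, 12 libraries in all, and the labels do not say whether the 3 came from separate mice, so p-values measure only the spread between these libraries, which may be technical. Counts on genes ranged from 15079703 to 22629563 in total RNA and from 4123271 to 10661356 in RPF, with RPF of Rnmt cKO 3 the shallowest.

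Complex II, succinate dehydrogenase, passes electrons from the citric acid cycle to ubiquinone and is encoded in the nucleus alone. Complex III transfers electrons from ubiquinol to cytochrome c, complex IV from cytochrome c to oxygen, and complex V uses the proton gradient to make ATP. Complexes III, IV and V combine nuclear subunits with subunits made inside the mitochondrion, whose mRNAs carry no cap. T cells enlarge their mitochondrial mass as they leave quiescence.

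Because RNMT acts on the cap, which is joined to the first transcribed base, the annotated starts of some members on which the results turn are shown first. RefSeq gave a start for 33 of the 41 members on GRCm38.p6. Starts in these cells were not measured here, and a start at another position could have another first base. In the sequences below, capitals mark the annotated first base together with any pyrimidines that follow an initial C. Each sequence holds 10 bases before the start and 20 bases from it, on the transcribed strand. They are from Sdhb at chr4:140961261-140961290 on the plus strand, and on the minus strand from Sdhd at chr9:50603830-50603859, Uqcrfs1 at chr13:30545297-30545326, Cox7a2 at chr9:79759834-79759863, Cox7a2l at chr17:83514314-83514343, Atp5c1 at chr2:10080491-10080520 (start 1) and chr2:10080413-10080442 (start 2) and Atp5o at chr16:91931611-91931640.
Sdhb: cattggctcgGagaaaccggaagcggcctt
Sdhd: ttacgcggggCgggacttactacataactg
Uqcrfs1: cctcccgctcCTCTTCgggccgtcgttcga
Cox7a2: tccggaggctAgacgggccgctgcgagaag
Cox7a2l: ggggaagccgGgtccttttctagggcggtc
Atp5c1, start 1: cggcttcggcGctcacgagatttagcgaga
Atp5c1, start 2: cgcactgagtCCCgtctgcccgaccttcaa
Atp5o: agcgatcacgCTggcgcgcgcgcgtgcgct

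By the first start listed for each gene, the first base was C in 5 of 33 members, or 15.2%, against 16.2% of 27025 genes. Atp5c1, Atp5d and Atp5j have another start that begins with C, so by any start it was 8 members, or 24.2%, against 18.9% of genes. A run of at least 5 pyrimidines led by that C was present in Uqcrfs1 and Atp5g2 by the first start, or 6.06% of members, against 2.49% of genes, and also in Atp5d by any start, or 9.09% against 3.01%. In total RNA the 5 members with C at their first start had log2 fold changes of 0.00 in Sdhd, 0.10 in Uqcrfs1, -0.16 in Atp5e, -0.29 in Atp5o and -0.80 in Atp5g2, so they held both members that fell and members that were not called.

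The genotypes were first checked at Rnmt itself. Rnmt in total RNA was 95.5, 94.1 and 94.3 CPM (counts scaled to library size) in control 1 to 3 and 29.3, 32.4 and 30.4 CPM in Rnmt cKO, a log2 fold change of -1.62 (SE 0.06, edgeR adjusted p = 5.8e-06). Its RPF level was 104, 87.9 and 98.9 CPM in control and 10.5, 10.4 and 9.60 CPM in Rnmt cKO. All 3 Rnmt cKO libraries were below the lowest control in both assays. CPM are relative to all genes of a library, so here and below a gene that rose or fell did so relative to the other genes. RNA and protein synthesis per cell were not measured in these libraries, and a change in amount per cell cannot be read from them.

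T cell markers were abundant in every library, and Cd4 in total RNA was 350, 324 and 316 CPM in control and 298, 271 and 315 CPM in Rnmt cKO. Of 8 CD4 T cell markers, 4 (Cd3d, Cd3g, Cd5 and Lck) fell and 1 (Cd2) rose in total RNA, where 28% of all genes tested fell and 26.3% rose. The 6 B cell markers summed to 9.92, 6.25 and 35.6 CPM in control total RNA and to 91.9, 110 and 20.2 CPM in Rnmt cKO, with Ms4a1 the most abundant and none at 0 in any total RNA library, and 3 of 5 tested (Ms4a1, Cd79b and Cd22) rose. In RPF the same sum was 12.8, 8.59 and 42.8 CPM in control and 139, 151 and 23.9 CPM in Rnmt cKO. Rnmt cKO 1 and 2 therefore held most of the B cell signal, and Rnmt cKO 3 lay within the range of the control libraries. The 2 CD8 T cell markers, of which Cd8a was the more abundant, summed to 21.4, 21.4 and 41.7 CPM in control total RNA and 26.4, 21.3 and 9.85 CPM in Rnmt cKO, with Rnmt cKO 3 below every control. The 8 myeloid and 5 NK cell markers each summed to under 5 CPM per total RNA library, led by Cd68 and Klrd1, and Csf1r and Cd14 were at 0 in the control total RNA libraries. In RPF the myeloid sum was 4.23 ± 0.376 CPM (SD, n = 3) in control and 6.24 ± 1.87 CPM in Rnmt cKO, and the NK cell sum 4.48 ± 2.81 CPM and 5.56 ± 1.19 CPM. Fcer1g, a receptor subunit of both cell types, was 0.0939, 0.151 and 0 CPM in control RPF and 1.29, 2.44 and 1.23 CPM in Rnmt cKO, and rose (edgeR adjusted p = 0.0043). Tyrobp, Ncr1 and Klre1 were under the filter but were higher in all 3 Rnmt cKO libraries than in any control in both assays, Rnmt cKO 3 included. The part of these cells in the results below was not tested. The main results are also given from Rnmt cKO 3 alone against the 3 control libraries, an alternative chosen after seeing the data in which Rnmt cKO 3 is assumed to vary like the controls. In bulk libraries, fewer cells of a type and less RNA per cell cannot be told apart.

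Many mRNAs of the complexes were less abundant in Rnmt cKO CD4 T cells, while few differed in ribosome protected fragments. In total RNA, 19 of 41 members decreased and 1, Cycs, increased (edgeR quasi-likelihood test, adjusted p below 0.05), where 28% of the 11519 genes tested decreased and 26.3% increased. The median log2 fold change of the members was -0.20, with 31 below 0, against -0.00 for all genes. In RPF, 3 of 40 tested members decreased (Sdha, Sdhb and Atp5o) and 5 increased (Uqcrfs1, Cox4i1, Cox5a, Cox7a2 and Atp5b), against 15.7% and 14.1% of 11428 genes. The median in RPF was -0.02. Translational efficiency (TE), the change in RPF relative to the change in total RNA, increased in 6 of 40 members and decreased in 0, against 3.24% and 6.57% of 10668 genes. At an unadjusted p under 0.05, edgeR gave 1 decrease in TE (Atp5g3, -0.26), and DESeq2 called 0 at adjusted p below 0.05. TE medians were 0.17 for members and 0.04 for all genes, and 32 of 40 members lay above 0.

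Of the 19 members that decreased in total RNA, RPF also decreased in 3, or 15.8%, and was not called in 16. A missing call in RPF is not a tested difference between the assays. TE, which tests that difference, increased in 3 of the 19 (Sdhb, Cox7a2l and Atp5c1). The median SE over all genes was 0.10 in total RNA and 0.12 in RPF. Of the 3089 genes of the whole table that decreased in total RNA and were tested in RPF, 44.4% also decreased in RPF, and their median log2 fold change in total RNA was -0.56 compared with -0.34 for the 19 members. Control and Rnmt cKO did not overlap in 22 of 41 members in total RNA, where 62.3% of genes tested did not overlap, and in 12 of 40 in RPF, against 46.5%. Across genes, which are not independent replicates, log2 fold changes in total RNA and RPF had r = 0.50 and rho = 0.53 over 40 members, compared with r = 0.78 and rho = 0.70 over 10668 genes, and within an assay the points share libraries and normalization. The plot of member fold changes shows these values gene by gene.

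**Figure D1:**
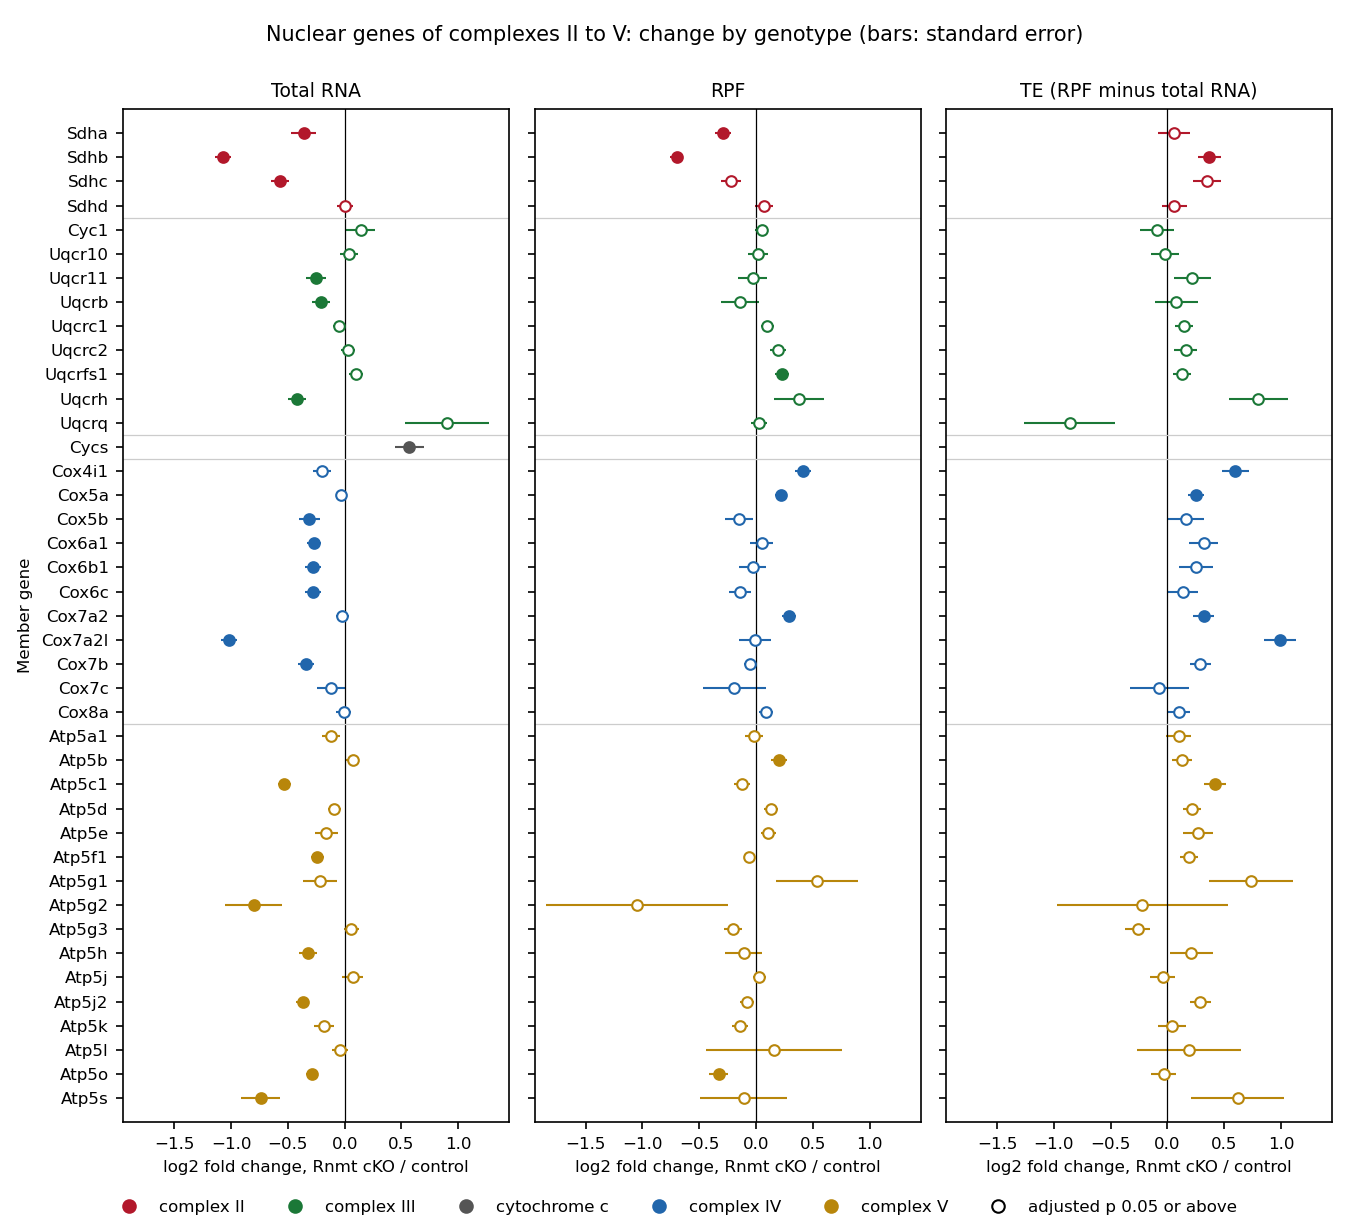
Log2 fold change of Rnmt cKO over control with its standard error for the 41 members (rows, grouped and coloured by complex) in total RNA, RPF and TE, with filled points for those that passed an adjusted p of 0.05. In total RNA 19 members fell and Cycs rose, in RPF 3 fell and 5 rose, and TE rose in 6, with 0 falls. Cycs was under the filter in RPF.

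With Rnmt cKO 3 alone against the controls, 8 of 41 members decreased in total RNA, where 2309 of 11119 genes (20.8%) did, so the members' share was then near that of all genes. The median over all members was -0.09. The 8 were Sdha, Sdhb, Sdhc, Uqcrh, Cox7a2l, Atp5c1, Atp5j2 and Atp5s, and Cycs again increased. The median was then -0.03 in RPF, and 0.04 in TE against 0.02 for all genes, with 17 of 39 members below 0 in TE. Members that had decreased in RPF were at -0.36 (Sdha), -0.76 (Sdhb) and -0.27 (Atp5o). Those that had increased in RPF were at 0.19 (Uqcrfs1), 0.35 (Cox4i1), 0.20 (Cox5a), 0.32 (Cox7a2) and 0.20 (Atp5b). Cox7a2l was at 1.08 in TE. With 1 Rnmt cKO library, these values carry no measured spread within that genotype. All 34 calls kept their direction in this comparison. The same Rnmt cKO 3 and control libraries also gave those calls, so a kept direction is not an independent check. Leaving out each library in turn, 14 of the 20 calls on total RNA passed every time, as did 4 of the 8 on RPF and 2 of the 6 on TE.

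In complex II, 3 of 4 subunits decreased in total RNA and 2 in RPF, where 28% and 15.7% of all genes decreased, and its largest change was in Sdhb. Sdhb, the iron-sulfur subunit, was 177, 182 and 175 CPM in control total RNA and 82.9, 79.0 and 91.6 CPM in Rnmt cKO. No Rnmt cKO library came near the controls, and the log2 fold change was -1.07 (SE 0.07, edgeR adjusted p = 1.7e-05). In RPF, Sdhb was 356, 329 and 346 CPM in control and 204, 225 and 203 CPM in Rnmt cKO, a change of -0.70 (SE 0.06, adjusted p = 2.3e-04 by edgeR). TE rose by 0.37 (SE 0.10, edgeR adjusted p = 0.028). The call in TE was lost without control 1, control 2, control 3, Rnmt cKO 1 or Rnmt cKO 2 (adjusted p = 0.089, 0.13, 0.072, 0.1 and 0.13), and from Rnmt cKO 3 alone it was 0.18 (adjusted p = 0.52), whereas those in total RNA and RPF held with any 1 library left out.

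Sdha, the flavoprotein that oxidises succinate, was 171, 182 and 189 CPM in control total RNA and 160, 146 and 117 CPM in Rnmt cKO (-0.36, SE 0.11, edgeR adjusted p = 0.024). Rnmt cKO 3 was the lowest of the libraries. The call was lost without control 2 or control 3 (adjusted p = 0.063 and 0.067). The value was -0.23 without Rnmt cKO 3, where the call held, and -0.60 from Rnmt cKO 3 alone. The size of the change therefore depended on that library. In RPF, Sdha was 515, 476 and 452 CPM in control and 405, 397 and 375 CPM in Rnmt cKO (-0.29, SE 0.07, adjusted p = 0.014 by edgeR). From Rnmt cKO 3 alone the RPF change was -0.36, without a measured spread in Rnmt cKO. TE of Sdha differed by 0.06 (SE 0.14). Sdhc and Sdhd anchor the enzyme in the membrane. Sdhc was 143, 149 and 134 CPM in control total RNA and 92.0, 88.2 and 106 CPM in Rnmt cKO (-0.57, SE 0.08, edgeR adjusted p = 6.0e-04), with an RPF change of -0.22 (SE 0.09, adjusted p = 0.085) that was not called, and its TE passed only without Rnmt cKO 3 (0.51, adjusted p = 0.0096). Sdhd was 233, 236 and 209 CPM in control and 221, 219 and 239 CPM in Rnmt cKO, with a log2 fold change of 0.00 (SE 0.07) in total RNA and 0.07 (SE 0.08) in RPF. Sdhd was the only subunit of the 4 whose genotypes overlapped in both assays.

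In complex III, 3 of 9 members decreased in total RNA, or 33.3%, which is near the 28% of all genes. They were the small subunits Uqcrh, Uqcr11 and Uqcrb. Uqcrh, the hinge protein that contacts cytochrome c1, was 229, 231 and 215 CPM in control total RNA and 165, 151 and 187 CPM in Rnmt cKO (-0.42, SE 0.08, edgeR adjusted p = 0.003). Its RPF level was spread widely in the controls, at 196, 98.3 and 151 CPM, and was 224, 188 and 168 CPM in Rnmt cKO. TE of Uqcrh differed by 0.80 (SE 0.26, adjusted p = 0.071), and with total RNA and RPF libraries of the same number paired the adjusted p was 0.037. Uqcrh in total RNA was at -0.24 (adjusted p = 0.045) from Rnmt cKO 3 alone. TE of Uqcrh also passed by DESeq2 (adjusted p = 0.018) and without control 1 (1.04, adjusted p = 0.032) or Rnmt cKO 3 (0.97, adjusted p = 0.049). The small subunits Uqcr11 and Uqcrb changed by -0.25 (SE 0.09, edgeR adjusted p = 0.039) and -0.21 (SE 0.08, adjusted p = 0.048) in total RNA. The call for Uqcr11 was lost without each library other than control 3 (adjusted p from 0.069 to 0.14), and for Uqcrb without each other than control 3 (0.054 to 0.15), and DESeq2 called neither (adjusted p = 0.059 and 0.11).

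Uqcrfs1, the Rieske iron-sulfur protein, was 178, 183 and 175 CPM in control total RNA and 189, 184 and 202 CPM in Rnmt cKO. Its RPF level rose from 287, 270 and 285 CPM to 325, 342 and 320 CPM (0.23, SE 0.06, edgeR adjusted p = 0.018). Uqcrfs1 was the only member of complex III called in RPF, and the call was lost without control 2 or Rnmt cKO 2 (adjusted p = 0.056 and 0.052). Without the filter on low counts Uqcrfs1 was not called in RPF (0.20, adjusted p = 0.12) and Uqcrh was (0.34, edgeR adjusted p = 7.9e-04). Uqcrc1, a core protein, was 242, 228 and 231 CPM in control total RNA and 226, 219 and 231 CPM in Rnmt cKO, and its RPF level was 522, 526 and 526 CPM against 560, 575 and 551 CPM (0.10, SE 0.06, adjusted p = 0.21). Cyc1, the cytochrome c1 subunit, was 48.5, 41.9 and 57.1 CPM in control total RNA and 55.3, 60.8 and 46.7 CPM in Rnmt cKO, and 306, 319 and 320 CPM against 322, 341 and 318 CPM in RPF. The genotypes of Cyc1 overlapped in both assays. The other core protein, Uqcrc2, and Uqcr10 were not called. Uqcrq was measured with less precision in total RNA (16.3, 13.1 and 34.8 CPM in control, 52.9, 40.0 and 27.5 CPM in Rnmt cKO), and its log2 fold change of 0.90 (SE 0.37, adjusted p = 0.07) passed without control 3 (1.43, adjusted p = 0.0048) or Rnmt cKO 3 (1.12, adjusted p = 0.031), as did its TE of -0.86 without control 3 (-1.40, adjusted p = 0.019). RPF of Uqcrq was 368 ± 22.5 CPM (SD, n = 3) in control and 377 ± 21.1 CPM in Rnmt cKO.

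Cytochrome c, the carrier between complexes III and IV, was represented by few counts. Cycs was 6.84, 6.78 and 5.88 CPM in control total RNA and 9.44, 8.62 and 10.9 CPM in Rnmt cKO, the only increase among the members in total RNA (0.57, SE 0.13, edgeR adjusted p = 0.0067). In RPF only 12 counts fell on Cycs in 6 libraries, and it was not tested. All 286 stretches of 30 bases in its coding sequence also occur in transcripts of other genes, 20 genes in all, so its counts of uniquely aligned reads are uncertain.

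In complex IV, 6 of 11 members decreased and 0 increased in total RNA, whereas 0 decreased and 3 increased in RPF and 4 increased in TE. The shares that decreased and increased were 54.5% and 0% in total RNA, against 28% and 26.3% of all genes, and 0% and 27.3% in RPF, against 15.7% and 14.1%, and TE increased in 36.4%, against 3.24%. Cox4i1, a nuclear subunit through which ATP regulates the enzyme, was 346, 346 and 302 CPM in control total RNA and 278, 273 and 318 CPM in Rnmt cKO. The genotypes overlapped through control 3 and Rnmt cKO 3, and the change of -0.20 (SE 0.08, adjusted p = 0.081) passed without either of them (-0.26 in each case, adjusted p = 0.035 and 0.023). In RPF, Cox4i1 was 529, 460 and 506 CPM in control and 660, 688 and 637 CPM in Rnmt cKO, a rise of 0.41 (SE 0.07, edgeR adjusted p = 0.0042). TE of Cox4i1 rose by 0.60 (SE 0.12, edgeR adjusted p = 0.005) and held with any 1 library left out. No coding stretch of 30 bases in Cox4i1 was shared with another gene. From Rnmt cKO 3 alone, the change was 0.35 in RPF and 0.39 in TE (adjusted p = 0.085 and 0.26).

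Cox5a and Cox7a2 rose in RPF without a change in total RNA that passed the test. Cox5a, a subunit on the matrix side, was 126, 129 and 126 CPM in control total RNA and 125, 123 and 125 CPM in Rnmt cKO, and 317, 314 and 311 CPM against 379, 359 and 361 CPM in RPF (0.22, SE 0.05, edgeR adjusted p = 0.016). The RPF call was lost without control 3 or Rnmt cKO 1 (adjusted p = 0.057 in each case) and by the edgeR exact test (0.056). Cox7a2, a small membrane subunit, was 181, 176 and 170 CPM in control total RNA and 177, 159 and 182 CPM in Rnmt cKO, and 271, 291 and 267 CPM against 327, 344 and 345 CPM in RPF (0.29, SE 0.06, edgeR adjusted p = 0.0078). TE rose by 0.25 (SE 0.07, adjusted p = 0.041) for Cox5a and 0.32 (SE 0.09, adjusted p = 0.048) for Cox7a2 by edgeR. Both TE calls were lost without any 1 of the 6 numbered pairs of libraries (adjusted p from 0.064 to 0.17 and from 0.051 to 0.22) and with same-numbered libraries paired (0.065 and 0.051).

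The 6 members of complex IV that decreased in total RNA were Cox5b, Cox6a1, Cox6b1, Cox6c, Cox7b and Cox7a2l, and none of them was called in RPF. Cox5b, a zinc-binding subunit, was 50.1, 51.5 and 48.9 CPM in control total RNA and 39.0, 37.1 and 45.4 CPM in Rnmt cKO (-0.31, SE 0.09, edgeR adjusted p = 0.017), and 85.8, 86.8 and 89.0 CPM against 64.7, 92.3 and 79.2 CPM in RPF. The call was lost without control 1, control 2, Rnmt cKO 1 or Rnmt cKO 2 (adjusted p = 0.051, 0.056, 0.081 and 0.058). Cox6a1, Cox6b1, Cox6c and Cox7b, small subunits on the periphery of the enzyme, changed by -0.27, -0.28, -0.28 and -0.34 in total RNA and by 0.05, -0.03, -0.14 and -0.05 in RPF. Of these, Cox6c lost its call in total RNA without Rnmt cKO 1 (adjusted p = 0.057), Cox6a1 passed in TE without Rnmt cKO 3 (0.44, adjusted p = 0.044), and Cox7b passed in TE without Rnmt cKO 3 (0.34, adjusted p = 0.045) and with same-numbered libraries paired (0.30, adjusted p = 0.046). From Rnmt cKO 3 alone, the change in total RNA was -0.12 for Cox5b and from -0.12 to -0.20 for the other 4, none of them called. Cox8a, which was not called in any comparison, was 145 ± 6.37 CPM (SD, n = 3) in control total RNA and 144 ± 12.4 CPM in Rnmt cKO. Cox7c was not called either, at 22.1 ± 2.15 CPM against 20.3 ± 2.84 CPM.

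Cox7a2l had the second largest fall of the members in total RNA and the largest rise in TE. It was 107, 105 and 94.2 CPM in control total RNA and 50.2, 47.5 and 53.5 CPM in Rnmt cKO (-1.02, SE 0.07, edgeR adjusted p = 3.4e-05). RPF of Cox7a2l did not follow, at 14.2, 13.7 and 14.1 CPM in control and 14.2, 12.1 and 15.7 CPM in Rnmt cKO, and TE rose by 0.99 (SE 0.14, edgeR adjusted p = 5.4e-04). In its coding sequence, 62.2% of 30-base stretches were shared with other genes and only 666 RPF counts were left over 6 libraries, so its RPF level is uncertain.

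**Figure D2:**
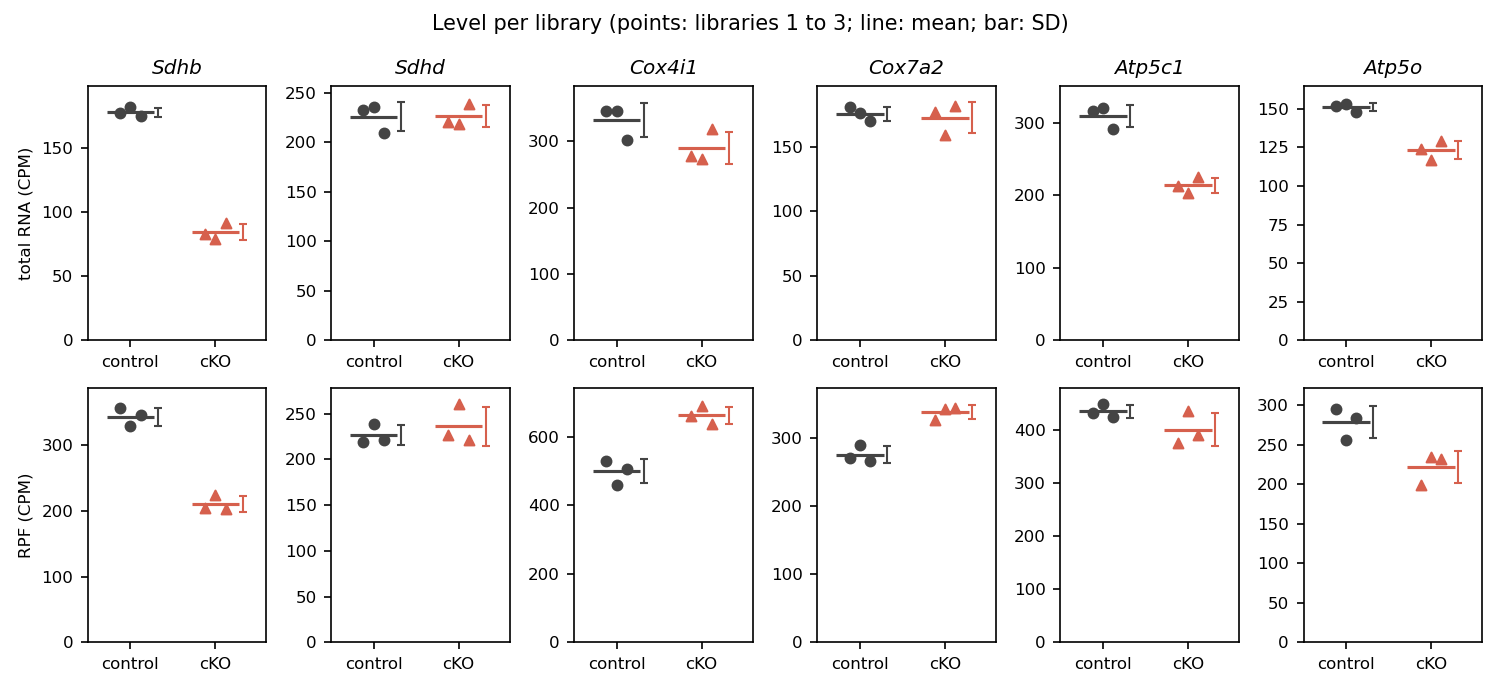
Level in each library in CPM (vertical axes from 0) of 6 members in total RNA (upper row) and RPF (lower row), control as circles and Rnmt cKO as triangles, with the mean and SD of 3 libraries. Sdhb fell in both assays and Sdhd overlapped in both, Cox4i1 and Cox7a2 rose in RPF with overlapping total RNA, Atp5c1 fell in total RNA only, and Atp5o fell in both.

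In complex V, 7 of 16 members decreased in total RNA, or 43.8% against 28% of all genes, and the alpha and beta subunits of the catalytic F1 head were not among them. Atp5a1, the alpha subunit, was 1533, 1573 and 1359 CPM in control total RNA and 1363, 1281 and 1470 CPM in Rnmt cKO, and 2195, 1979 and 2014 CPM against 2104, 2098 and 1905 CPM in RPF. Atp5b, the beta subunit, was 1510, 1538 and 1382 CPM in control total RNA and 1548, 1514 and 1603 CPM in Rnmt cKO. In RPF it was 2732, 2741 and 2726 CPM in control and 3031, 3264 and 3152 CPM in Rnmt cKO. The genotypes were apart in RPF, but the rise of 0.20 (SE 0.07, edgeR adjusted p = 0.047) was lost without each of the 6 numbered libraries in turn (adjusted p from 0.056 to 0.16) and by the edgeR exact test (0.17).

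Atp5c1, the gamma subunit that turns inside the F1 head, was 317, 320 and 292 CPM in control total RNA and 213, 204 and 225 CPM in Rnmt cKO (-0.53, SE 0.06, edgeR adjusted p = 3.1e-04). Its RPF level was 433, 449 and 426 CPM in control and 376, 437 and 392 CPM in Rnmt cKO, so the genotypes overlapped. TE rose by 0.42 (SE 0.10, edgeR adjusted p = 0.018), and the call was lost without control 1, control 2 or Rnmt cKO 2 (adjusted p = 0.11, 0.07 and 0.082). The delta and epsilon subunits Atp5d and Atp5e were not called, though without Rnmt cKO 3 Atp5e passed in total RNA (-0.27, adjusted p = 0.012) and in TE (0.40, adjusted p = 0.041), and DESeq2 called Atp5d in TE (0.22, adjusted p = 0.049).

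Of the 10 genes of the membrane part and the peripheral stalk, 5 decreased in total RNA, or 50.0%. Of the 5 genes of the F1 head, Atp5c1, Atp5d and Atp5e included, 1 did, or 20.0%, against 28% of all genes. Atp5o, the stalk protein that confers sensitivity to oligomycin, was 152, 153 and 148 CPM in control total RNA and 124, 117 and 129 CPM in Rnmt cKO (-0.29, SE 0.05, edgeR adjusted p = 0.0026). It was the only member of complex V that also decreased in RPF, from 295, 256 and 284 CPM to 199, 235 and 232 CPM (-0.33, SE 0.08, edgeR adjusted p = 0.02), a call lost without control 1, control 3 or Rnmt cKO 1 (adjusted p = 0.064, 0.054 and 0.065). Atp5j2, Atp5h and Atp5f1, subunits of the membrane part and peripheral stalk, decreased by 0.37, 0.32 and 0.24 on the log2 scale in total RNA and changed by -0.08, -0.11 and -0.06 in RPF, which was not called. From Rnmt cKO 3 alone, all 5 were nearer 0 in total RNA, at -0.25 for Atp5j2, -0.18 for Atp5h, -0.20 for Atp5f1, -0.20 for Atp5o and -0.69 for Atp5g2. Atp5c1 of the F1 head was then at -0.43, also nearer 0. Atp5j, Atp5k and Atp5l, of the same parts, were not called in any comparison, though Atp5k passed in total RNA without control 3 (-0.26, adjusted p = 0.028).

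The 3 genes Atp5g1, Atp5g2 and Atp5g3 encode the same c subunit of the rotor ring. Atp5g3 was the highest per kb in both assays, at 292, 291 and 308 CPM in control total RNA and 331, 303 and 295 CPM in Rnmt cKO, and 1027, 1016 and 931 CPM against 953, 820 and 811 CPM in RPF (-0.20, SE 0.08, adjusted p = 0.099). This change passed in RPF without Rnmt cKO 1 (-0.28, adjusted p = 0.046). Atp5g1 was 18.9, 19.0 and 14.4 CPM in control total RNA and 16.6, 12.3 and 16.1 CPM in Rnmt cKO, and in RPF 3.47, 2.41 and 6.25 CPM against 4.56, 6.44 and 6.89 CPM, and its TE passed only without control 3 (1.29, adjusted p = 0.032). Atp5g2 had the fewest counts, at 1.96, 2.33 and 2.10 CPM in control total RNA and 0.747, 1.55 and 1.30 CPM in Rnmt cKO. Its fall of -0.80 (SE 0.25, edgeR adjusted p = 0.029) rested on 191 counts over 6 libraries and was lost without any control library or Rnmt cKO 1 (adjusted p from 0.054 to 0.087) and by DESeq2 (0.07). All coding stretches of 30 bases of Atp5g1 and Atp5g2, and none of Atp5g3, occur in transcripts of other genes, so how the 3 genes divide the c subunit mRNA cannot be read from these counts. Atp5s decreased by 0.74 (SE 0.17) in total RNA, on 311 counts.

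Compared by their summed CPM, the complexes differed in direction. Complex II summed to 724.3, 748.6 and 707.1 CPM in control total RNA and 555.8, 532.8 and 552.3 CPM in Rnmt cKO, and to 1314, 1241 and 1224 CPM against 1029, 1067 and 957.7 CPM in RPF. It was lower in every Rnmt cKO library in both assays. Complex IV summed to 1631, 1605 and 1512 CPM in control total RNA and 1343, 1264 and 1455 CPM in Rnmt cKO, lower throughout, but to 2557, 2325 and 2410 CPM against 2747, 2726 and 2619 CPM in RPF, higher throughout. This rise lay mainly in 3 members, Cox4i1 (498 to 662 CPM on average), Cox7a2 (276 to 339 CPM) and Cox5a (314 to 366 CPM), and 6 of the 11 members had an RPF log2 fold change below 0. Complex III overlapped in total RNA, at 1160 ± 19.8 CPM (SD, n = 3) in control and 1126 ± 37.7 CPM in Rnmt cKO, and was higher in RPF, at 2319 ± 103 CPM against 2532 ± 61.5 CPM. Complex V summed to 4884 ± 242 CPM and 4594 ± 222 CPM in total RNA and to 8608 ± 203 CPM and 8831 ± 167 CPM in RPF, with overlap in both assays. Atp5a1 and Atp5b made up most of these sums. In total RNA they averaged 1488 and 1477 CPM in control and 1371 and 1555 CPM in Rnmt cKO.

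**Figure D3:**
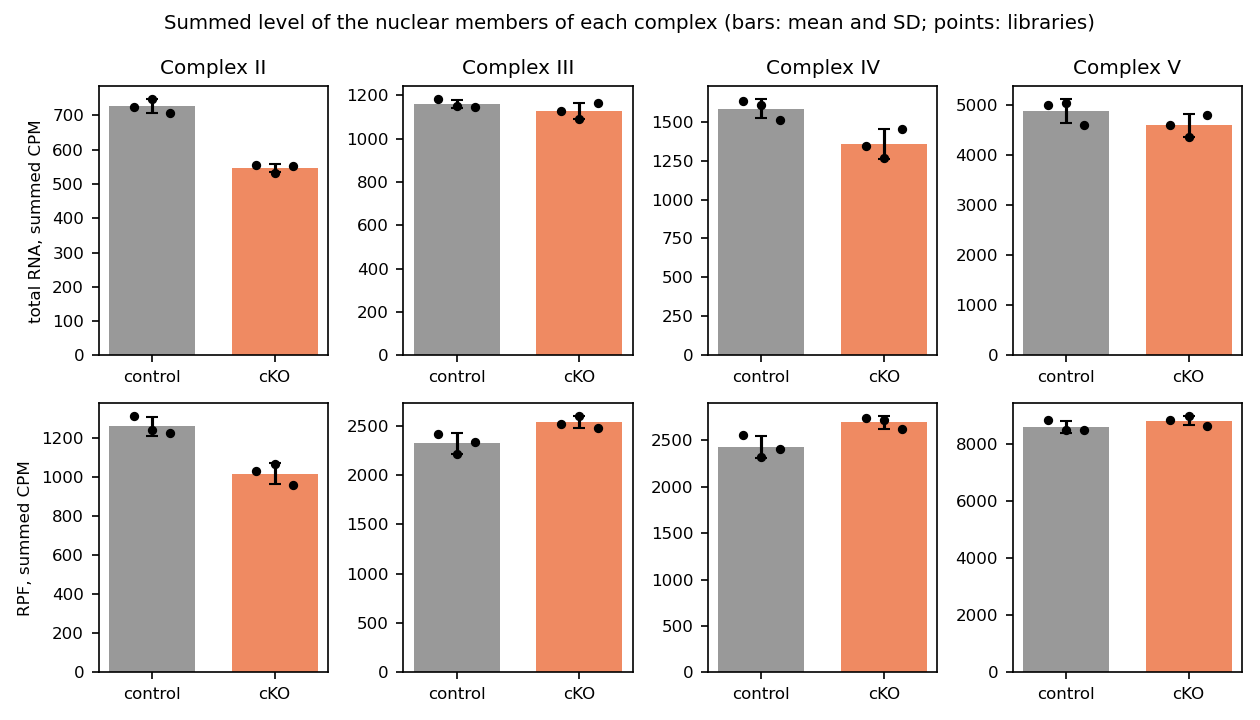
Summed CPM of the nuclear members of complexes II to V (vertical axes from 0) in total RNA (upper row) and RPF (lower row), where bars are means with SD and points the 3 libraries of each genotype. Complex II is lower in Rnmt cKO in both assays, and complex IV is lower in total RNA and higher in RPF.

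As a share of the summed CPM of all members, complex II went from 8.62 ± 0.131% (SD, n = 3) in control RPF to 6.75 ± 0.217% in Rnmt cKO, with libraries between 8.47 and 8.70% and between 6.51 and 6.94%. Complex IV went from 16.6 ± 0.306% to 17.9 ± 0.202% in RPF, while its share of total RNA went from 18.9 ± 0.168% to 17.7 ± 0.422%. Complex V held 58.9 ± 0.560% of RPF in control and 58.6 ± 0.224% in Rnmt cKO, while its share of total RNA went from 58.4 ± 0.624% to 60.2 ± 0.0788%. The summed CPM of complex V in total RNA did not rise. Complex III went from 13.9 ± 0.468% to 14.8 ± 0.214% in total RNA and from 15.9 ± 0.353% to 16.8 ± 0.150% in RPF. The share of complex II in total RNA went from 8.70 ± 0.198% to 7.17 ± 0.229%. The medians of the log2 fold changes were -0.47 for complex II, 0.03 for complex III, -0.27 for complex IV and -0.20 for complex V in total RNA, and -0.26, 0.05, -0.01 and -0.07 in RPF. In TE the medians were 0.21, 0.13, 0.25 and 0.19, all above the 0.04 of all genes. From Rnmt cKO 3 alone they were -0.50, 0.01, -0.12 and -0.10 in total RNA, -0.38, 0.08, -0.04 and -0.03 in RPF and 0.09, -0.01, 0.04 and 0.07 in TE. Complex II again had the lowest median in total RNA and in RPF. Complexes differ in their number of genes, and the genes share libraries, so no test was made between them.

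Levels between genes were compared per kb, of annotated exons in total RNA and of coding sequence in RPF. In control RPF the highest levels were Atp5e (2849 ± 188 CPM per kb, SD, n = 3), Atp5g3 (2343 ± 125), Atp5b (1722 ± 4.54), Cox8a (1539 ± 72.9), Atp5j (1408 ± 33.6) and Uqcrq (1390 ± 85.0), of which Atp5j and Uqcrq lay within their spread of each other. Sdha was at 241 ± 16.1 CPM per kb and Sdhb at 406 ± 16.4. The median per complex was 409 CPM per kb for complex II, 341 for complex III, 753 for complex IV and 462 for complex V. In control total RNA the order began with Atp5e (841 ± 42.6 CPM per kb), Atp5b (771 ± 43.4) and Atp5a1 (512 ± 39.2). Uqcrq, in place 6 in RPF, was in place 37 of 41 in total RNA. Its annotated exons hold 1827 bases and its coding sequence 265 bases, and which exons these cells used was not tested. Its total RNA level in control also varied widely (11.7 ± 6.41 CPM per kb). The contrast between the places is therefore uncertain.

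In control cells the members had a median log2 ratio of RPF to total RNA CPM of 0.57 ± 0.10 (SD over 3 libraries) over 40 genes, against 0.20 ± 0.01 for 9985 protein-coding genes. The medians were 0.75 ± 0.11 for complex II, 0.65 ± 0.08 for complex III, 0.60 ± 0.11 for complex IV and 0.47 ± 0.08 for complex V, and those of complexes II, III and IV lay within an SD of their neighbours. The highest members were Uqcrq (4.23 ± 0.71, SD, n = 3), Cyc1 (2.69 ± 0.22), Atp5j (2.43 ± 0.09) and Atp5d (1.88 ± 0.01). Those lowest were Atp5l (-3.95 ± 0.41), Cox7a2l (-2.84 ± 0.11), Cox7c (-2.48 ± 0.17) and Atp5g1 (-2.12 ± 0.86).

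Parts of many members occur in annotated transcripts of other genes. In 5 members, Cycs, Cox7c, Atp5g1, Atp5g2 and Atp5l, all coding stretches of 30 bases were shared, and their RPF levels in control ran from 0.195 to 4.05 CPM with total RNA from 2.13 to 24.1 CPM. In the 13 members with none shared, RPF ran from 4.24 to 2063 CPM with a median of 368 CPM, and in the 23 with some shared from 14.0 to 2733 CPM with a median of 252 CPM. Only uniquely aligned reads were counted, so levels and TE of members with a large shared part, which also include Uqcrb (90.5%), Atp5h (80.2%), Cox5b (74.9%), Cox6c (67.8%), Atp5o (63.3%) and Atp5f1 (62.4%) are uncertain. Sdha, Sdhb, Sdhc, Sdhd, Uqcrfs1 and Cox4i1 had 0 shared stretches.

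**Figure D4:**
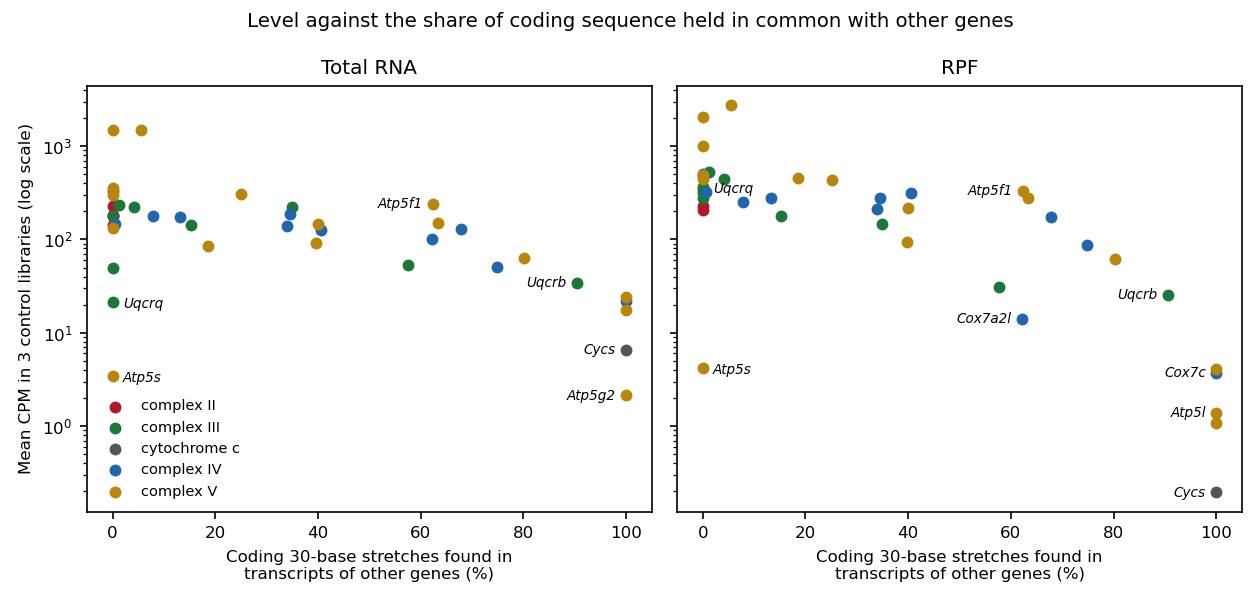
Mean CPM of the 41 members in 3 control libraries (vertical axis, log scale) against the percentage of 30-base coding stretches found in transcripts of other genes, for total RNA and RPF, coloured by complex. The 5 members at 100% lie between 0.195 and 4.05 CPM in RPF, and Atp5s, with none shared, lies at 4.24 CPM.

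Assembly factors and regulators were read against the shares over all genes tested, 28% down and 26.3% up in total RNA and 15.7% and 14.1% in RPF. Of 6 assembly factors of complex III, 4 decreased and 0 increased in total RNA, led by Uqcc2, needed for synthesis of cytochrome b. Uqcc2 was 83.7, 84.7 and 76.0 CPM in control and 28.8, 24.5 and 29.2 CPM in Rnmt cKO (-1.57, SE 0.09, edgeR adjusted p = 1.3e-05), and decreased in RPF as well (-1.12, SE 0.11, adjusted p = 4.0e-04), a larger fall than any subunit of the complex showed. Of the 4 factors of complex II, Sdhaf3 and Sdhaf4 decreased in total RNA (-0.40 each) and Sdhaf1 increased in RPF (0.67, SE 0.09, adjusted p = 0.0016 by edgeR). Among 22 tested factors of complex IV, 6 decreased and 5 increased in total RNA (27.3% and 22.7%), and in RPF 4 decreased and 3 increased (18.2% and 13.6%), shares near those of all genes. Sco1, a copper chaperone of complex IV, was 23.7, 24.3 and 25.5 CPM in control total RNA and 41.5, 42.3 and 39.1 CPM in Rnmt cKO (0.74, SE 0.07, edgeR adjusted p = 1.0e-04), whereas Cox20 (-0.77, SE 0.13) and Cmc1 (-0.72, SE 0.10) decreased. Of 4 assembly factors and inhibitors of complex V, Atpaf2 decreased (-0.56, SE 0.08) and Tmem70 increased (0.28, SE 0.09) in total RNA. Hccs, which attaches haem to cytochrome c, increased by 0.28 (SE 0.06, edgeR adjusted p = 0.0037).

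For comparison, 21 of 35 tested complex I subunits decreased in total RNA and 0 increased, with a median of -0.26, and in RPF 10 decreased and 0 increased, with a median of -0.09. These were 60.0% in total RNA and 28.6% in RPF, against 28% and 15.7% of all genes. TE of complex I subunits increased in 4 and decreased in 0, or 11.4% and 0%, against 3.24% and 6.57% of all genes. In RPF, 3 of 40 tested members of complexes II to V decreased and 5 increased. These were 7.50% and 12.5%, against 15.7% and 14.1% of all genes, and 2 of the 3 decreases were in complex II. The difference between complex I subunits and the members was not tested. Of the mitochondrially encoded subunits, mt-Co1 was 2905 ± 163 CPM (SD, n = 3) in control total RNA and 2886 ± 164 CPM in Rnmt cKO, and mt-Cytb 424 ± 38.3 CPM and 492 ± 65.0 CPM, and neither was called in any comparison. mt-Co2, mt-Co3, mt-Atp6 and mt-Atp8 had at most 0.0660 CPM on average in counts of unique reads and were not tested. Among 11 regulators of mitochondrial gene expression, 3 decreased in total RNA (Nrf1, Tfb1m and Esrra, by 0.17, 0.64 and 0.44 on the log2 scale) and 3 increased (Gabpa, Pprc1 and Yy1, by 0.33, 0.70 and 0.33), which is 27.3% each way and near the shares of all genes. TE of Yy1 fell by 0.34 (SE 0.08, edgeR adjusted p = 0.015). Nrf1 and Gabpa, which bind promoters of respiratory genes, were not called in RPF (-0.09, SE 0.11, and 0.11, SE 0.06).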

How the data were processed

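Members and gene lists were chosen with earlier results of these data known. The authors used read 2 alone, trimmed it with Cutadapt, removed rRNA and tRNA reads with Bowtie and aligned the rest with STAR 2.5.2b to mm10 with GENCODE vM12. They deposited whole-number counts of uniquely aligned reads per gene, without normalization. Their deposited table of 10126 genes also holds normalized signal values per library, which served to find gene symbols and that the reverse-strand counts were the ones used, and fold changes and p-values from edgeR and RiboDiff, which were not used. Mitochondrial rRNA held 18.7 to 23.6% of counts in total RNA and 2.30 to 4.51% in RPF.

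Within each assay, genes were kept if 3 of 6 libraries exceeded a CPM of 1. Libraries were scaled by TMM, and genotypes were compared by quasi-likelihood F tests (edgeR 4.0.16, R 4.3.3). For TE, the interaction of genotype and assay was fitted to the 12 libraries, since RiboDiff was not used here. Benjamini-Hochberg adjustment ran over all genes tested (threshold 0.05). The SE was derived from the F statistic. Values are CPM over TMM-scaled library sizes, and TE per library used a prior count of 2. Total RNA and RPF libraries of the same number and genotype deviated together (correlations of 0.11 to 0.38 over 6 pairs), so the paired TE value is given where it changes a call. Genes named in full were the core subunits and, for each complex and assay, the called members with the largest rise and fall. Other members and genes of the other lists were named after their values were seen. Shared stretches and exon lengths came from GENCODE vM21, start sites from RefSeq on GRCm38.p6. Alternatives were another scaling, filter, strand, test or tool (DESeq2 1.42.0), blocks and libraries left out. The scripts were tested on simulated data.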

Additional observations from a re-analysis of the deposited data

How the results depend on the processing

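None of the 34 calls on members changed direction under any alternative listed here, all of which reuse the same libraries. Counts of calls changed as follows, beside 19 decreased and 1 increased in total RNA, 3 and 5 in RPF and 0 and 6 in TE. Decreased members in total RNA were 16 by DESeq2 and with a replicate block, 17 by library size without TMM, 20 at unadjusted p under 0.05 and 18 under each other alternative that kept all libraries. Uqcrb was not called by any of these but unadjusted p (adjusted p from 0.053 to 0.11), and DESeq2 did not call Uqcr11 and Atp5g2 (0.059 and 0.07). Increased members in total RNA were 2 by library size without TMM, by the edgeR exact test, without a filter on low counts and at unadjusted p under 0.05, where Uqcrq was added. RPF decreases were 5 without the filter and at unadjusted p, and RPF increases 3 by the exact test and without the filter, 4 with at least 10 counts in every library or a replicate block and 7 at unadjusted p. TE increases were 3 by library size without TMM and without the filter, 5 with a replicate block, 8 by DESeq2 and 13 at unadjusted p, with 1 decrease at unadjusted p. Without the filter, edgeR did not call Sdhb (adjusted p = 0.079), Cox5a (0.18) and Cox7a2 (0.11) in TE or Uqcrfs1 (0.12), Cox5a (0.14) and Atp5b (0.23) in RPF, and it called Uqcrh (7.9e-04), Sdhc (0.02) and Atp5g3 (0.04) in RPF. With each library left out in turn, decreases numbered 14 to 19 in total RNA, 2 to 3 in RPF and 0 to 1 in TE, and increases 1 to 2, 3 to 4 and 2 to 9. Over all genes, 701 decreases and 346 increases in TE became 415 to 812 and 122 to 367 with a library left out, 525 and 214 without the filter, and 294 and 81 from Rnmt cKO 3 alone, where RPF had 520 and 477 in place of 1796 and 1612 and total RNA 2309 and 2193 in place of 3220 and 3024. From Rnmt cKO 3 alone, chosen after seeing the data, there were 8 decreases in total RNA, 1 decrease and 0 increases in RPF and 1 increase in TE, by edgeR with fewer libraries.

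Medians over all members in total RNA ranged from -0.26 to -0.11 with each library left out, those of complex III from -0.02 to 0.06 and of complex V from -0.27 to -0.09, and in RPF those of complex IV from -0.03 to 0.05 and of complex V from -0.08 to -0.04. By library size without TMM, complex III was at 0.06 in total RNA. Without the filter, complexes IV and V were at -0.05 and -0.10 in RPF. From Rnmt cKO 3 alone, all members were at -0.09 in total RNA and 0.04 in TE, complexes IV and V at -0.12 and -0.10 in total RNA, II and V at -0.38 and -0.03 in RPF, and III, IV and V at -0.01, 0.04 and 0.07 in TE.

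Under the alternatives other than Rnmt cKO 3 alone, values without a call that changed sign by more than their SE were Cox5b in TE (-0.05 without Rnmt cKO 2, up to 0.26 with another library left out), Cox7a2 in total RNA (0.05 without Rnmt cKO 2, down to -0.05) and Cox7c in total RNA (0.00 without Rnmt cKO 2, down to -0.21). The others were Atp5h in RPF (0.05 without Rnmt cKO 3, down to -0.28), Atp5s in RPF (0.34 without control 3, down to -0.40) and Atp5l in total RNA (0.20 with counts of both strands). Others changed sign by less, and members below 0 in total RNA numbered 27 without Rnmt cKO 2 in place of 31 of 41. More values without a call changed sign from Rnmt cKO 3 alone, where 17 of 39 members lay below 0 in TE in place of 8 of 40 and 25 in total RNA. The cause was not tested.

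The labels do not say what libraries of the same number share across genotypes. Correlations of their deviations were -0.52 to -0.22 in total RNA and -0.07 to 0.15 in RPF. With the number as a replicate block, the median of complex V in RPF was -0.04, and the calls of Sdha (adjusted p = 0.052), Uqcr11 (0.076) and Uqcrb (0.093) in total RNA, of Atp5b in RPF (0.084) and of Cox5a (0.067) and Cox7a2 (0.078) in TE were not made by edgeR, while Uqcrh was called in TE (0.049). Pairing total RNA with RPF within genotype gave 6 increases in TE, of which Uqcrh and Cox7b took the place of Cox5a and Cox7a2.

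With 3 libraries per genotype and the shallowest RPF library at 4123271 counts, members with few counts, such as Atp5g2 and Atp5l, had standard errors of 0.60 to 0.80 in RPF, and changes of ordinary size were not detectable there.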

Other observations

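The gene Atp5mpl, which encodes a small proteolipid of complex V, is listed in the deposited table as 2010107E04Rik and was therefore not found by the prefix. It was singled out after its values were seen. In total RNA it was 169, 163 and 153 CPM in control and 129, 122 and 138 CPM in Rnmt cKO (-0.32, SE 0.07, edgeR adjusted p = 0.0043), and in RPF 194, 176 and 171 CPM against 191, 188 and 196 CPM (0.09, SE 0.07). TE rose by 0.41 (SE 0.10, edgeR adjusted p = 0.018). Like most members of complexes IV and V that decreased, it was lower in total RNA in every Rnmt cKO library and overlapped in RPF. Usmg5, another small subunit of complex V, and Ndufa4, a subunit of complex IV that carries a complex I name, were also not found by the prefixes, and they were left out of the counts of complex V factors and complex I subunits after the values were seen. Usmg5 was 39.7, 40.9 and 32.6 CPM in control total RNA and 33.5, 32.1 and 39.9 CPM in Rnmt cKO (-0.10, SE 0.12), with 0.39 (SE 0.18) in RPF and 0.49 (SE 0.23) in TE, and was not called. Ndufa4 was 229, 229 and 205 CPM in control total RNA and 186, 169 and 202 CPM in Rnmt cKO (-0.25, SE 0.08, edgeR adjusted p = 0.03), and it was not called in RPF (-0.06, SE 0.07) or TE (0.19, SE 0.11).

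Cox4i2, Cox6a2, Cox7a1 and Cox8b, isoforms of lung, muscle or heart, reached at most 0.487, 0.838, 0.838 and 0.0442 CPM in any library, and Cox7b2 and Cox8c, of testis, had 0 counts. Cox6b2, also of testis, was higher and reached 2.43 CPM, with 116 counts over 12 libraries.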
